A study of Mus musculus with 6 samples.

Results

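The extracellular matrix genes described here are 6 genes whose RNA carries sites of stalled reverse transcription at G-quadruplex motifs: Fn1, Col1a1, Col5a1, Sparc, Agrn and Pkdcc. They were chosen by gene symbol alone, as every deposited row that names one of them, and they hold 17 of the 5538 sites and 6 of the 2643 gene entries. The cells were 1 clonal mouse embryonic stem cell line (129S1/CastEiJ x 129S1, TsixTST/+, with the genotype label WT and the treatment label None), sampled on day 0, day 3 and day 7 of embryoid body differentiation, 2 samples a day. All samples share the line and its allele, and the stem cells had been grown on inactivated feeder cells, which were depleted before LIF, the cytokine that holds stem cells undifferentiated, was withdrawn. The bodies floated until day 3 and then grew attached to gelatinized plates. Each day 7 sample also has a table named in vitro, whose preparation the labels do not describe.

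A G-quadruplex is a 4-stranded fold of guanine runs, and potassium steadies it where lithium does not. Cells were exposed to dimethyl sulfate (DMS), which can methylate guanines that are not held in such a fold, and chromatin-bound polyadenylated RNA was reverse transcribed in K+ or in Li+. The enzyme copies RNA from its 3′ end and halts at a fold, so a stop seen in K+ and not in Li+ marks a motif able to fold in the tube. The extracellular matrix is the protein scaffold that cells secrete and hold on to. Collagens form its fibrils, fibronectin ties fibrils to integrin receptors, Sparc binds collagen, and agrin is a heparan sulfate proteoglycan of basement membranes. In early embryos, fibronectin and basement membranes appear with the first epithelia, while fibrillar collagen is a product of mesenchymal cells.

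Of the 17 sites, 9 were bulged motifs (52.9%, against 41.7% of all sites), 3 had long loops, 3 were of the two-quartet class, which needs only pairs of guanines, 1 was a guanine-rich potential quadruplex and 1 was canonical (5.88% against 15.7%). Coding sequence held 7 of them (41.2%, against 24.2%), 3′ untranslated regions 7, and 5′ untranslated regions 2. The Fn1 site counts as coding or 3′ untranslated by transcript. The motif crossed a splice junction at 3 sites (17.6%, against 2.73%), 1 each in Col5a1, Sparc and Agrn. Guanine made up 38.3% to 76.2% of the motif with a median of 60.7%, near the median of 59.5% over all sites.

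The most covered site of each gene is shown first, since the amount of RNA was read there, followed by the Col1a1 site that overlaps the gene's most covered one. Each sequence is given 5′ to 3′ along the RNA as T for U, from the first base of the motif to the last base counted as a stop, with runs of 2 or more guanines in capitals, on GRCm38 (mm10).

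Fn1, two-quartet, chr1:71593147-71593164, minus strand: GGagaGGagtGGGagcGGt

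Col1a1, two-quartet, 3′ untranslated, chr11:94952515-94952531, plus strand: GGGGtGGGGtGGGaaGGa

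Col5a1, bulged, 3′ untranslated, chr2:28037292-28037318, plus strand: GGaccgttGGccGGGagtGGGGGcGGGa

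Sparc, two-quartet, coding, joined from chr11:55407220-55407244 and chr11:55406597-55406597, minus strand: GGaaaccgtGGtGGaGGagacaGGGGt

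Agrn, bulged, 3′ untranslated, chr4:156166094-156166121, minus strand: gcaGGaGGGGctgttGGGGttgaGGGGGc

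Pkdcc, canonical, 3′ untranslated, chr17:83224829-83224849, plus strand: GGGGtGGGGGtaGGGtcGGGG

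Col1a1, guanine-rich site, last 30 bases, motif at chr11:94952469-94952528: gctacatctctgtgaaGGGGtGGGGtGGGa

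The canonical Pkdcc motif has 4 runs of at least 3 guanines joined by short loops and lies 220 bases before the gene's end. The Col1a1 motifs end 511 to 579 bases before the gene's end, and the Agrn site 804 bases before its end. Sparc is the exception among the most covered sites, with its motif 49.5% of the way along the gene. The Sparc exon site had no run of 3 guanines, and the Fn1 and Sparc junction sites had 1 each. Pkdcc carried its other 2 sites near the start of transcription, 50 and 140 bases downstream of it (gene borders from RefSeq, GRCm38.p6).

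Depth differed widely between libraries. Outside ribosomal and mitochondrial RNA, the in-cell libraries held 87479 to 831346 reads in K+ and 94677 to 1536568 in Li+, with the most on day 7. The K+ library of day 3 replicate 1 stood apart: 9.62% of its reads outside those RNAs were stops, against 4.37% to 5.84% in the other 5 in-cell K+ libraries. Stop shares between days that rest on it are given with and without it; the comparison of K+ with Li+ within day 3 could not be refitted without it, and is given per replicate. Reads were listed at 9 and 6 of the 17 sites in the day 0 samples, at 9 and 5 in those of day 3 and at 17 and 16 in those of day 7, and a listed 0 stands for at most 5 reads, since no lower coverage above 0 occurs in the tables than 6.

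The amount of RNA was read as K+ plus Li+ reads over the most covered site of each gene, and is also given as CPM, the reads scaled to a common library size. Pkdcc rose between day 0 and day 7, from a listed 0 in every day 0 and day 3 sample to at least 15.7-fold above the most that a listed 0 allows. Col1a1 also passed the test from a listed 0, but its day 7 level was about that which a listed 0 allows in replicate 2 of days 0 and 3, so a rise of Col1a1 was not shown. Fn1, Sparc, Agrn and Col5a1 were present on day 0 in at least 1 sample, and none of their changes passed the threshold with zeros taken as 0. A listed 0 for both cations stands for up to 10 reads, which is 7 and 19.9 CPM in the day 0 samples, 10.9 and 19.8 in those of day 3. Pkdcc and Col1a1 entered the test only through the day 7 samples, where they are high. The fit was therefore repeated with each listed 0 at 10 reads, an alternative chosen after the data were seen, in which the imputed zeros carry no spread of their own. In bulk RNA, fewer cells that make an RNA and less of it per cell cannot be told apart.

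**Figure D1:**
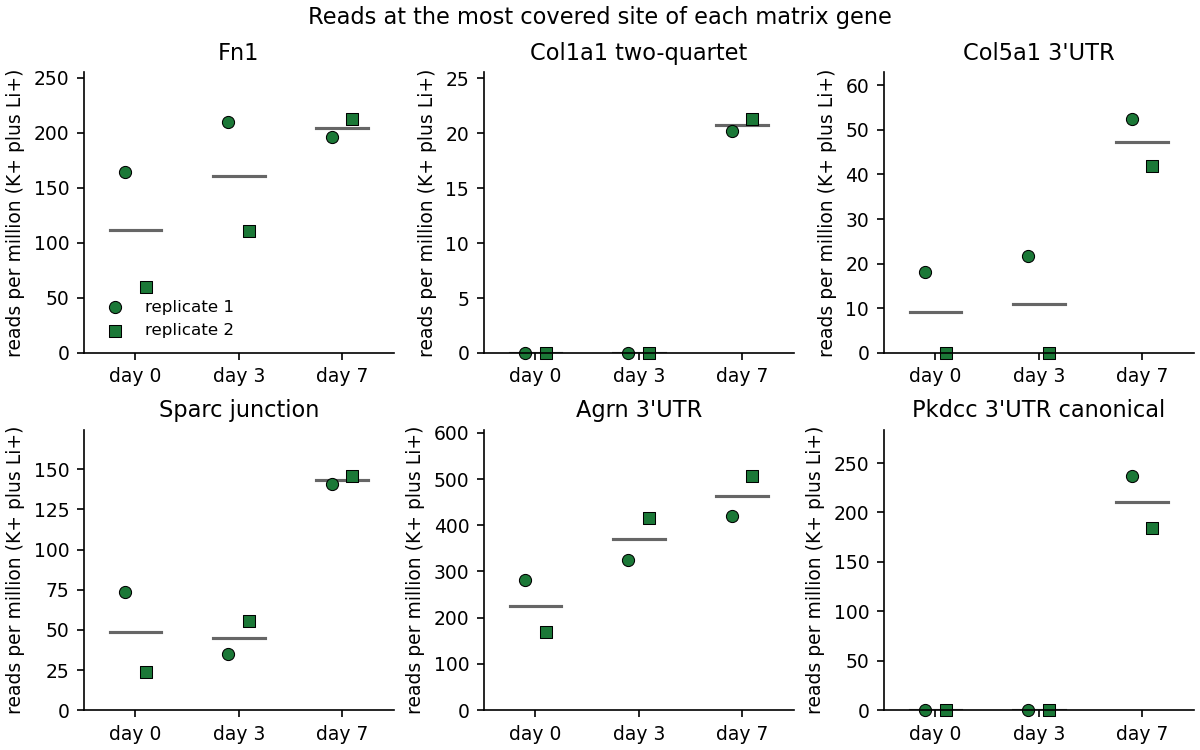
CPM (K+ plus Li+ reads scaled to a common library size) over the most covered site of each of the 6 genes, on the vertical axis, by day; circles are replicate 1, squares replicate 2 and bars the mean of both. Pkdcc and Col1a1 sit at 0 on days 0 and 3 and at 183.9 to 236.6 and 20.2 to 21.3 on day 7, while Fn1 overlaps between days.

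Pkdcc encodes a secreted tyrosine kinase (VLK) that phosphorylates proteins of the secretory pathway and the matrix. Its canonical site was listed at 0 reads in all 4 samples of days 0 and 3 and at 890 and 250 on day 7. The day 7 mean was 210.2 ± 37.3 CPM (SD, n = 2), at least 15.7-fold above day 0 and at least 13.7-fold above day 3, counting each listed 0 as 10 reads per sample. Both differences passed (limma-voom adjusted p = 8.55e-04 and 1.98e-03), and with each listed 0 at 10 reads the log2 changes were 4.34 ± 0.55 and 3.85 ± 0.60 (SE; adjusted p = 4.57e-06 and 1.21e-04). The bulged site beside it had 702 and 235 reads on day 7, and the sites in the 5′ untranslated region 392 and 133 reads at the first and 109 and 70 at the second. All 4 sites, at both ends of the RNA, were listed at 0 before day 7. Pkdcc thus entered the tests only through day 7 and could only be called higher. With zeros at 10 reads the imputed values have no spread, so the rise is read from the folds written as "at least" and not from the p-values.

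Col1a1, which encodes the alpha 1 chain of type I collagen, had 0 reads at its two-quartet site in all 4 samples of days 0 and 3 and 76 and 29 on day 7. The day 7 mean of 20.8 ± 0.796 CPM (SD, n = 2) was at least 1.55-fold above day 0 and at least 1.35-fold above day 3 (limma-voom adjusted p = 3.57e-03 and 5.75e-03, with zeros taken as 0). With each listed 0 at 10 reads neither change passed, at 1.01 ± 0.58 and 0.52 ± 0.63 (log2, SE; limma-voom adjusted p = 0.266 and 0.717). Day 7 replicate 1 and 2, at 20.2 and 21.3 CPM, lay next to the 19.9 and 19.8 CPM that a listed 0 allows in replicate 2 of days 0 and 3. The other Col1a1 sites had 34 and 40 reads (long-loop) and 64 and 25 (guanine-rich) on day 7, and none before. Both day 0 samples, from cells that had been grown on feeders, were among those at 0, which allows 7 and 19.9 CPM there. Any part of feeder cells in the Col1a1 reads was not tested.

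Col5a1, the alpha 1 chain of the type V collagen that nucleates type I fibrils, was read in its 3′ untranslated region. The day 0 samples had 26 and 0 reads, those of day 3 had 20 and 0, and those of day 7 had 197 and 57. Both day 7 samples were above all earlier ones. The fitted change from day 0 was 4.31 ± 1.35 (log2, SE) and missed the threshold (limma-voom adjusted p = 0.0624), as did that from day 3 (3.90 ± 1.34, adjusted p = 0.111). The zeros of replicate 2 stand for up to 10 reads, and against that floor the day 7 mean was 2.48 times the day 0 mean. Its junction site was listed only in day 7 replicate 1, with 21 reads.

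Sparc encodes a matricellular protein that binds collagen. Its junction site was covered by 105 and 12 reads in the day 0 samples, 32 and 28 in those of day 3, and 529 and 198 in those of day 7. Scaled to CPM these were 73.5 and 23.8, 34.8 and 55.5, and 140.6 and 145.6, so both day 7 samples were above every earlier one while days 0 and 3 overlapped. The change from day 0 was 1.15 ± 0.45 (log2, SE; adjusted p = 0.101) and that from day 3 was 1.85 ± 0.58 (adjusted p = 0.0853), neither past the threshold in limma-voom. The change from day 3 was 1.34 without day 3 replicate 1 (adjusted p = 0.550). With each listed 0 of other genes at 10 reads, both passed, at 1.62 ± 0.44 and 1.70 ± 0.45 (adjusted p = 0.0129 and 0.0173). Sparc itself has no zero in K+ plus Li+ reads, though day 0 replicate 2 had 12 reads in K+ and 0 in Li+. The cause was not tested.

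Agrn encodes agrin. The day 0 samples held 401 and 85 reads at its 3′ site, the day 3 samples 299 and 210, and the day 7 samples 1583 and 688. The CPM were 280.6 and 168.8, then 325.5 and 416.2, then 420.8 and 506.0. The days did not overlap, but 416.2 on day 3 and 420.8 on day 7 lay close together. The share of all genes that separate by day in this way was not counted. Neither step passed in limma-voom, with 0.70 ± 0.34 from day 0 to day 3 (log2, SE, adjusted p = 0.568). From day 3 to day 7 it was 0.33 ± 0.32 (adjusted p = 0.593). The change from day 0 to day 7 was 1.03 ± 0.33 (log2, SE; limma-voom adjusted p = 0.0639). With total coverage as the only scaling it was 1.50 and passed (adjusted p = 0.0424), but that scaling moved the median change of all genes from 0.57 to 1.01. With each listed 0 of other genes at 10 reads it was 1.02 ± 0.33 (adjusted p = 0.0375).

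Fn1, the fibronectin gene, was covered by 235 and 30 reads in the day 0 samples, 193 and 56 in the day 3 samples, and 737 and 289 in the day 7 samples. The scaled values were 164.5 and 59.6, 210.1 and 111.0, and 195.9 and 212.5 CPM, so day 3 overlapped both other days and day 7 exceeded day 0. The change from day 0 to day 7 was 0.71 ± 0.47 (log2, SE; limma-voom adjusted p = 0.285).

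With zeros taken as 0, 2 of the 6 genes were called higher and 0 lower from day 0 to day 7, while 15.2% of the 2389 genes tested were called higher and 75 genes lower. With each listed 0 at 10 reads, 3 of the 6 (Pkdcc, Agrn and Sparc) and 10% of all genes were called higher, and the median log2 change was 1.18 for the 6 genes and 0.17 over all genes. From day 3 to day 7, 2 were called higher in both fits, Pkdcc with Col1a1 (10.8% of all genes) or, with zeros at 10 reads, Pkdcc with Sparc (4.31%). The 2 genes at 0 could only be called higher, so these counts describe the 6 genes and support nothing about them. From day 0 to day 3 none changed (0.0837% of all genes rose; 0 of the 6 at an unadjusted p under 0.05 in limma-voom, 205 of all genes). Pkdcc and Col1a1, at 0 in all 4 samples, have no measured change from day 0 to day 3. Of the other 4 genes Sparc had a fitted change below 0, of -0.71 ± 0.67 (adjusted p = 0.793), and it turned to 2.41 with Li+ reads alone and to 0.74 without day 0 replicate 1.

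The calls depended on which sample was left out, for the 6 genes and over all genes alike. Without day 0 replicate 1 the log2 changes from day 0 to day 7 were 5.60 for Col5a1, 1.44 for Agrn and 1.75 for Fn1. With all samples they were 4.31, 1.03 and 0.71. Without either day 7 replicate Pkdcc and Col1a1 were left with reads in 1 library and were not tested, and 0 of the other 4 genes passed against day 0 or day 3. Without day 3 replicate 2 the differences of Pkdcc and Col1a1 from day 3 to day 7 missed the threshold. Without day 3 replicate 1 the log2 change of Col5a1 from day 3 to day 7 was 5.61.

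**Figure D2:**
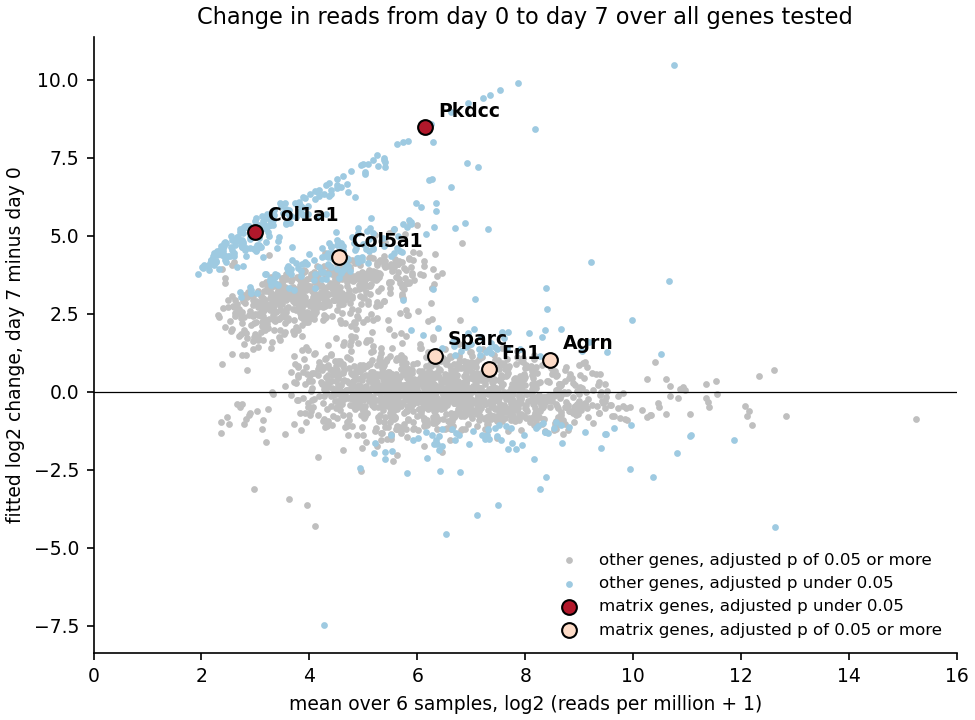
Fitted log2 change in reads from day 0 to day 7 against the mean level over the 6 in-cell samples (log2 of CPM plus 1) for all 2389 genes tested, with the 6 matrix genes as large points. Pkdcc and Col1a1 lie on the upper edge, made of genes listed at 0 in every day 0 sample, whose fitted values depend on the prior count; the other 4 genes lie above 0 among genes that did not pass.

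The summed levels of markers of pluripotent cells and neuroectoderm moved over the same days. Of 9 pluripotency markers 4 had a site, and their summed level was 2567 and 2432 CPM in the day 0 samples, 2831 and 2959 in those of day 3 and 423.2 and 806 in those of day 7, with Pou5f1, Sox2, Esrrb and Tdgf1 as the 4. The mesoderm factor gene T, the only 1 of 8 mesoderm markers with a site, was listed at 0 until day 7 (13.3 and 16.2). A listed 0 allows 19.9 CPM in day 0 replicate 2 and 19.8 in day 3 replicate 2, so a rise of T was not shown. Of 6 neuroectoderm markers, Nes, Sox11 and Otx2 had sites and summed to 28.7 and 27.8 on day 0 and 239.2 and 197.1 on day 7. No site was listed for any of 16 feeder fibroblast, 10 parietal endoderm and 8 visceral endoderm markers, so these types could not be measured. The part of any cell type in the rise of Pkdcc was not tested.

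Of 171 other genes of the matrix, its receptors and its enzymes, 23 had a site and 20 were tested. Among the 20, Gpc1, Loxl2, Thbs1 and Tnc were at 0 in both day 0 samples, so against day 0 they could only be called higher. Counts of calls over the 20 therefore describe these genes and support nothing about them. From day 0 to day 7, 8 of the 20 were called higher and 1 lower, against 15.2% of all 2389 genes called higher and 75 called lower. With each listed 0 at 10 reads it was 7 and 0 of the 20 against 10% of all genes, with a median log2 change of 0.76 against 0.17, and Gpc1, Loxl2 and Tnc no longer passed (adjusted p = 0.149, 0.430 and 0.682). Thrombospondin 1 (Thbs1), a matricellular protein, went from 0 and 0 reads to 469 and 133, at least 8.29-fold (adjusted p = 0.00119), the glypican gene Gpc1 from 0 and 0 to 94 and 33, at least 1.83-fold (0.00272), and Serpinh1, the collagen chaperone Hsp47, from 131 and 92 to 3168 and 874 (2.65 ± 0.39 log2, adjusted p = 0.00413). Ltbp4, which binds latent TGF-beta, was the 1 called lower, with a log2 change of -2.16 ± 0.55 (0.0346; all limma-voom), or -1.42 ± 0.51 with zeros of other genes at 10 reads (0.0612). No type IV collagen or laminin chain gene on the list had a site. The basement membrane is thus represented by Agrn, Nid2, Hspg2 and Col18a1. From day 0 to day 7 none of them passed in limma-voom with zeros taken as 0 (adjusted p = 0.0639, 0.979, 0.0780 and 0.118). Their log2 changes differed in direction, at 1.03, 0.02, -0.78 and 0.72.

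The genes whose log2 CPM followed each of the 6 most closely over the 6 samples were taken from 2383 others. For Pkdcc these were Cmtm3, Thbs1 and Suv39h1 and for Col1a1 Jade2, Npepl1 and Krt8, each with a Pearson's r of 1.000 and each at 0 in all 4 earlier samples. Col5a1 was most like Podxl and Specc1l (both 0.999) and Fkbp10 (0.998), which shared its zeros in replicate 2 of days 0 and 3. Agrn was most like Hjurp (0.994), Fbl (0.993) and Sox3 (0.990), Fn1 like Arid3b (0.989) and Ankrd28 (0.986), and Sparc like Pak2 (0.977), Map7d1 (0.973) and Arl6ip1 (0.969). Among the 6 genes themselves r ran from 0.521 (Pkdcc and Fn1) to 0.999 (Pkdcc and Col1a1). These values describe 6 samples that share depth and day.

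None of the 17 sites had enough K+ stops to enter the test of stop counts between days. The Pkdcc canonical site had 0 stops in all 4 earlier samples and 45 and 10 on day 7, with 35 and 8 in Li+ at the same site. The Agrn 3′ site had 4 and 0 stops in the day 0 samples, 10 and 5 in those of day 3, and 21 and 10 in those of day 7. Fn1 had 3 and 0, 6 and 1, and 6 and 4. In replicate 1 the Agrn and Fn1 sites had more stops on day 3 than on day 0 from fewer K+ reads (59 against 257 and 51 against 132), in the library that stands apart.

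The share of K+ reads that stopped, which is relative to the reads over the site, could be compared between days at the Agrn 3′ site and, for day 7 against day 3, at Fn1. At the Agrn site it was 1.56% and 0% in the day 0 samples, 16.9% and 3.70% in those of day 3, and 3.89% and 2.87% in those of day 7. The day 3 library with the high share is the one that stands apart. The log2 odds changed by 2.42 ± 1.21 (SE) from day 0 to day 3, and by 1.47 without that library, by 1.30 ± 1.25 from day 0 to day 7, and by -1.14 ± 0.77 from day 3 to day 7, or -0.22 without that library. At Fn1 the share was 11.8% and 2.78% on day 3 and 2.34% and 2.38% on day 7, a change of -1.65 ± 0.79, or -0.67 without day 3 replicate 1. In limma on weighted log2 odds none of these 4 comparisons passed (adjusted p = 0.60, 0.811, 0.975 and 0.940), and neither did any of the 958, 1434 and 1129 sites tested (0% each; 74, 95 and 46 at an unadjusted p under 0.05).

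On day 7 in cells no difference between K+ and Li+ was detectable at most sites of these genes. There the K+ share was above the Li+ share at 10 of 17 sites in replicate 1 and at 6 of 16 in replicate 2, with medians of 5.26% in K+ and 3.97% in Li+ in the first and 2.91% and 4.02% in the second. Pooled over all 17 sites, 128 of 2041 K+ reads stopped in day 7 replicate 1 (6.27%, exact 95% interval 5.26% to 7.41%) against 171 of 4008 in Li+ (4.27%, 3.66% to 4.94%). In replicate 2 the pooled shares were 3.65% (2.70% to 4.83%) and 4.05% (2.94% to 5.41%), so the intervals overlapped there and not in replicate 1. The excess of replicate 1 was smaller without the Pkdcc canonical site. The pooled shares were then 4.79% (3.83% to 5.90%) in K+ and 3.97% (3.34% to 4.68%) in Li+, and the intervals overlapped. The overlapping pairs share reads, so the pool counts some reads more than once; without the upstream site of each pair, and with the canonical site, the shares were 5.99% and 3.73%. Over all sites outside ribosomal and mitochondrial RNA the K+ share was likewise above the Li+ share in replicate 1 (5.84% and 4.21%) and below it in replicate 2 (4.37% and 4.92%).

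The Pkdcc canonical site had the largest K+ excess on day 7 relative to its error. In replicate 1, 45 of 307 K+ reads stopped (14.7%, 10.9% to 19.1%) against 35 of 583 in Li+ (6.0%, 4.22% to 8.25%). In replicate 2 the shares were 8.13% (10 of 123) and 6.30% (8 of 127). The difference was called in replicate 1 (Fisher's exact test, two-sided, adjusted p = 0.00190; 1 of the 13 sites tested, against 4.44% of all sites) and not in replicate 2 (adjusted p = 1.0; 0 of 11 against 0.196%). Over both replicates the log2 odds were higher in K+ by 1.04 ± 0.43 (SE), an unadjusted p of 0.0443 in limma that did not hold after adjustment over 3045 sites (adjusted p = 0.974, and 0.781 to 0.974 over the alternatives).

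At the other 10 sites tested on day 7 the K+ over Li+ log2 odds ran from -1.40 ± 0.84 at the Agrn junction site to 1.32 ± 0.97 at the first Pkdcc site of the 5′ untranslated region. The Agrn 3′ site, the most deeply covered, gave 0.06 ± 0.49, Fn1 gave 0.36 ± 0.69 and the Sparc junction site 0.05 ± 0.66. None of the 11 sites passed, and 0% of the 3045 tested did (limma; 136 at an unadjusted p under 0.05). Col1a1 had at most 50 reads per library at any site on day 7, and shares there had wide intervals: at the two-quartet site 11.5% in K+ (3 of 26, 2.45% to 30.2%) and 2.00% in Li+ (1 of 50, 0.0506% to 10.6%) in replicate 1, and 7.14% and 6.67% in replicate 2.

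**Figure D3:**
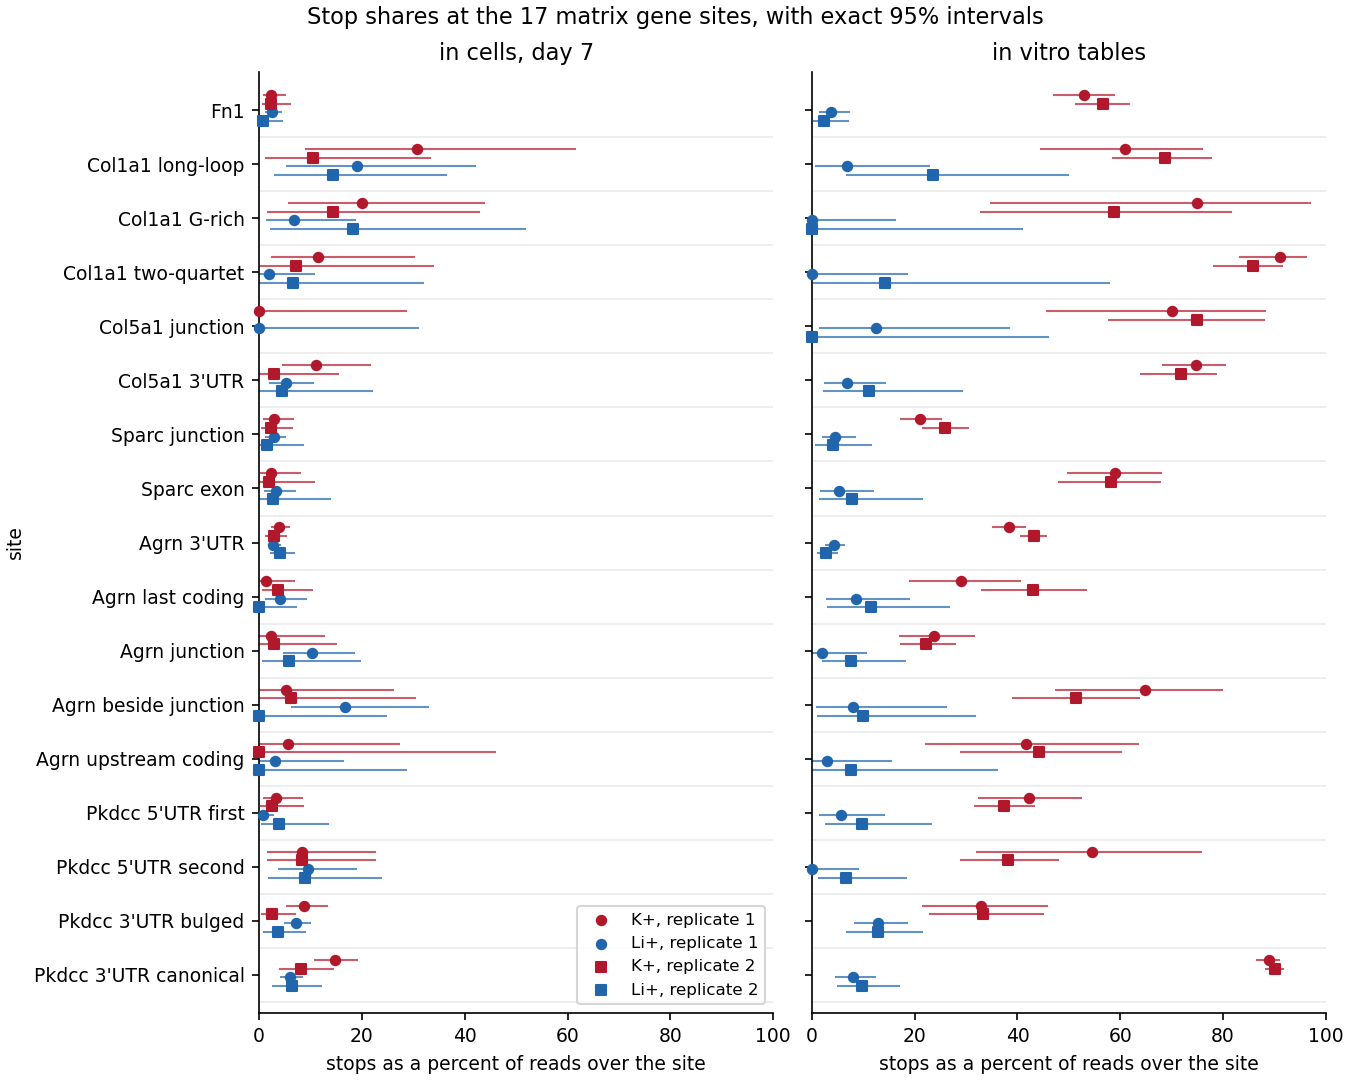
Stops as a percent of the reads over each of the 17 sites (horizontal axis) on day 7 in cells and in the in vitro tables, K+ in red and Li+ in blue, circles for replicate 1 and squares for replicate 2, with exact 95% intervals that cover counting error only. In vitro every K+ point lies right of its Li+ point, up to 91.1%, while in cells the intervals of K+ and Li+ overlap at all sites but the Pkdcc canonical site in replicate 1.

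Before day 7 few sites had enough reads. On day 0 the Agrn 3′ site had 1.56% (4 of 257) and 0% (0 of 51, exact 95% interval up to 6.98%) in K+ and 2.78% (4 of 144) and 2.94% (1 of 34) in Li+, a log2 odds difference of -1.19 ± 0.76 (limma adjusted p = 0.892; 0% of 1282 sites called, 61 at an unadjusted p under 0.05). By Fisher's exact test 0 of 5 and 0 of 1 sites were called in the replicates of day 0, against 0.232% and 0.23% of all sites. On day 3 the Agrn site had 16.9% (10 of 59) in K+ and 2.08% (5 of 240) in Li+ in replicate 1 (Fisher's exact test, adjusted p = 0.00123), and Fn1 11.8% (6 of 51) and 1.41% (2 of 142; adjusted p = 0.0339). These were 2 of the 3 sites tested there, in the library pair that stands apart, where 15.6% of all sites were called. In replicate 2 the Agrn site had 3.70% and 1.33% and Fn1 2.78% and 0% (Fisher's exact test, adjusted p = 1.0 for both; 0.495% of all sites called). Over both replicates neither site passed, with log2 odds higher in K+ by 1.87 ± 1.03 at Agrn and 2.12 ± 1.21 at Fn1 (limma adjusted p = 0.620 for both; 0% of 965 sites called, 87 at an unadjusted p under 0.05). Shares that fall within such intervals were not distinguishable at this depth.

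In vitro, all 17 sites stopped more often in K+ than in Li+ in both replicates. All 5538 sites of the series did so in both replicates, so the direction is a property of the site list and no finding about these genes. By the limma test 12 of the 12 sites tested passed, and 99.4% of all 3266. What varied was the size. The Pkdcc canonical site stopped 88.8% and 90.1% of K+ reads and the Col1a1 two-quartet site 91.1% and 85.8%, the 97.0th and 96.2th percentile of all sites by mean K+ share. At the low end the Agrn junction site stopped 23.8% and 22.3% and the Sparc junction site 21.0% and 25.9%, the 5.98th and 6.25th percentile. Between them lay Col5a1 (74.7% and 71.8% in its 3′ untranslated region), Fn1 (53.0% and 56.6%) and Agrn (38.4% and 43.2% at its 3′ site).

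Values of the structural classes overlapped. The Col1a1 two-quartet site was among the highest, and the 2 other two-quartet sites, Fn1 and the Sparc junction site, stopped 54.8% and 23.4% of K+ reads on average. Bulged sites ran from a mean of 23.0% at the Agrn junction to 73.2% in the Col5a1 3′ untranslated region. The 3 sites that cross a splice junction gave 23.0%, 23.4% and, in Col5a1, 72.5%. Overlapping motifs in 1 stretch of RNA also differed: the Sparc exon site stopped 59.0% and 58.1% of K+ reads against 21.0% and 25.9% at the junction site that shares bases with it.

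The in vitro odds of a stop in K+ over Li+ were set against those on day 7 at the same sites. The log2 odds were higher in vitro at all 11 sites tested, and 9 passed (limma; 74.5% of 2648 sites did). The Pkdcc canonical site differed most of the 11, by 5.41 ± 0.61 (SE; adjusted p = 2.13e-05), then Fn1 by 4.71 ± 0.94 (9.48e-04) and the Sparc exon site by 4.64 ± 1.08 (2.46e-03). The smallest of the 9 was at the bulged Pkdcc site, 1.82 ± 0.73 (adjusted p = 0.0339), which missed the threshold whichever 1 of the 4 library pairs was left out (adjusted p = 0.102 to 0.125). The first Pkdcc site of the 5′ untranslated region (1.63 ± 1.20, adjusted p = 0.209) and the last coding Agrn site (2.21 ± 1.25, 0.111) did not pass. The second Pkdcc site of the 5′ untranslated region did, with 4.49 ± 1.18 (4.65e-03). Since every listed site had a K+ excess in vitro, the list itself leans towards higher in vitro values.

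Without day 7 replicate 1, 5 sites passed instead of 9: Fn1 (adjusted p = 0.0637), the Sparc junction (0.190), the Agrn junction (0.107) and the bulged Pkdcc site (0.116) missed the threshold. Without day 7 replicate 2 the Sparc junction missed it too (0.0837). The mean K+ share fell from 54.8% in vitro to 2.36% on day 7 at Fn1, a ratio of 23.2, and from 89.5% to 11.4% at the canonical Pkdcc site, a ratio of 7.85, against a median ratio of 10.6 over all sites.

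**Figure D4:**
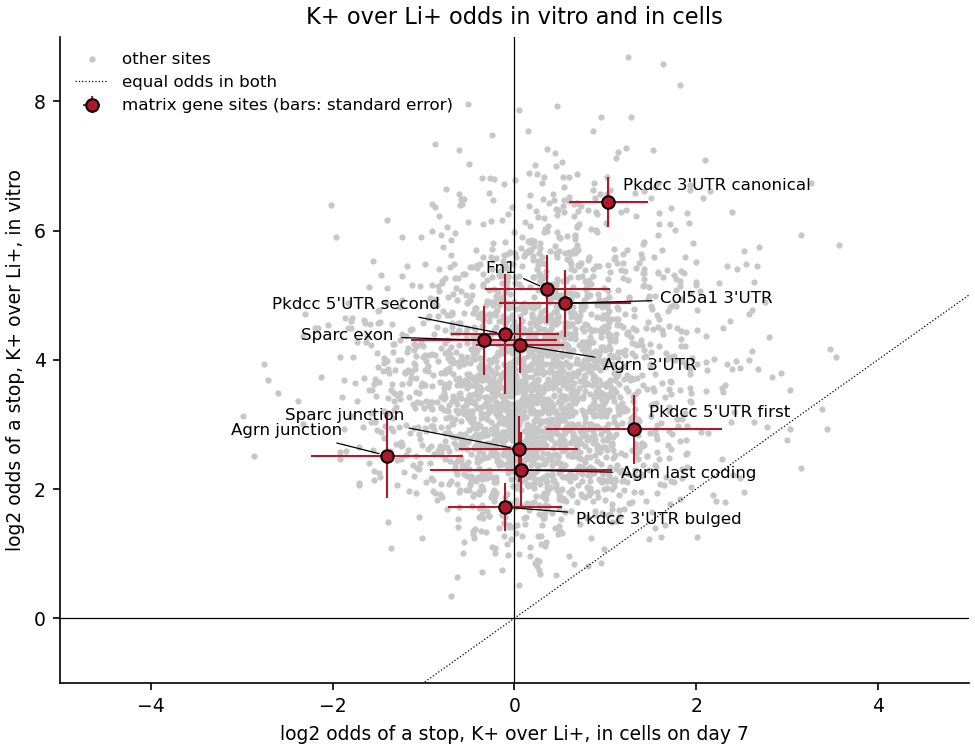
Log2 odds of a stop in K+ over Li+ in cells on day 7 (horizontal axis) and in vitro (vertical axis) for each site with 20 or more reads in every library; red points are the 11 sites of the matrix genes, with standard errors, and the dotted line marks equal odds. All 11 lie above the line, the Pkdcc canonical site highest at 6.44 in vitro and 1.04 in cells.

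The motifs of 4 pairs of sites overlap, and reads that stop at the motif nearer the 3′ end do not reach the other. This comparison was added after the values were seen. Reverse transcriptase meets the canonical Pkdcc motif before the bulged one. In vitro, 811 of 913 and 1082 of 1201 K+ reads stopped at the canonical site, and the bulged site was covered by 64 and 78 K+ reads, 7.0% and 6.5% as many as the canonical site. In Li+ the bulged site had 81.9% and 83.0% as many reads as the canonical one, and in cells on day 7 it had 73.9% and 100.8% in K+ and 81.5% and 87.4% in Li+. Set against the reads that had passed the canonical stop, the bulged site was covered by 62.7% and 65.5% in K+ in vitro and 86.6% and 109.7% on day 7.

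In Col1a1 the stop of the guanine-rich site lies 4 bases beyond that of the two-quartet site. In vitro 90 and 120 K+ reads covered the two-quartet site, 8 and 17 of them passed it, and 8 and 17 covered the guanine-rich site. In day 7 K+ libraries it was covered by 76.9% and 100.0% as many reads as the two-quartet site. The in vitro shares at the bulged Pkdcc site (32.8% of 64 reads and 33.3% of 78) and the guanine-rich Col1a1 site (75.0% of 8 and 58.8% of 17) describe the few reads that were left.

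The pairs that include a splice junction differed from these. The Sparc exon site had 27.5% and 26.1% as many K+ reads in vitro as the junction site, but in Li+ it had only 47.7% and 52.1%, and on day 7 in K+ 50.6% and 37.0%. Of the K+ reads that passed the Sparc junction stop in vitro, 122 of 350 and 105 of 298 were matched by reads over the exon site. The Agrn coding site beside the junction had 25.2% and 27.3% as many K+ reads as the junction site in vitro, against 49.0% and 37.7% in Li+ and 45.2% and 45.7% in K+ on day 7. At these pairs the upstream site was thus the less covered one in every library shown, lithium and cells included. Over neighbouring stops in the series at most 10 bases apart, 611 to 887 pairs by library, the median was 41.5% and 41.4% in K+ in vitro, 87.5% and 86.2% in Li+ in vitro, and 89.2% and 93.1% in K+ on day 7.

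**Figure D5:**
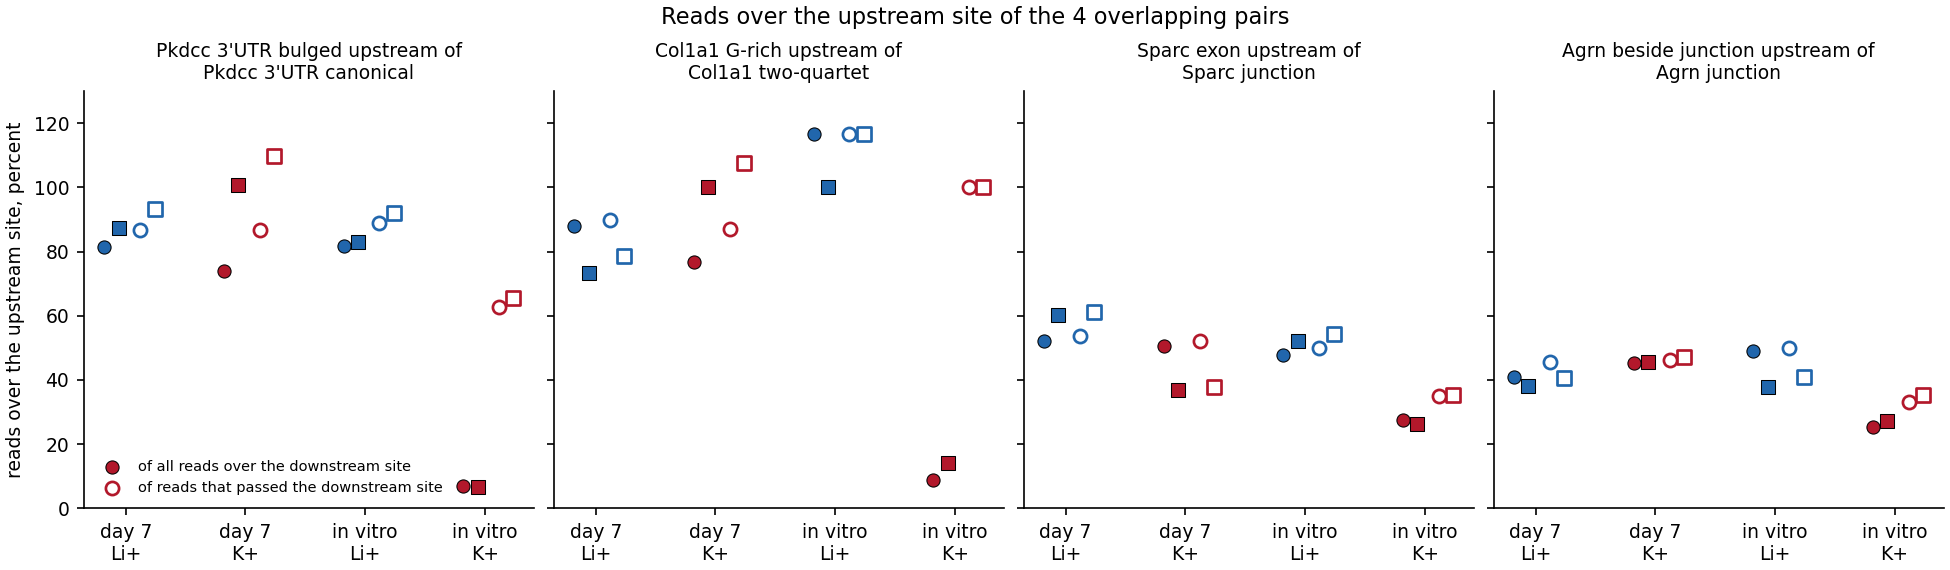
Reads over the upstream site of the 4 overlapping pairs as a percent of all reads over the downstream site (filled) and of the reads that passed it (open), by table and cation; circles are replicate 1 and squares replicate 2, K+ in red and Li+ in blue. In vitro in K+ the filled points drop to 6.5% to 14.2% at the Pkdcc and Col1a1 pairs, while those of the Sparc and Agrn pairs lie between 25.2% and 60.3% over all libraries.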

How the data were processed

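Stops of reverse transcription were measured in 6 in-cell samples and 2 in vitro tables. The submitters' processing notes name STAR, cutadapt and SAMtools, and the builds GRCm38.p6 and mm10. Alignment settings, strandedness and the handling of multi-matching reads are, in the sources used here, not given. The deposited tables hold whole-number read counts per site (coverage and stops, in K+ and Li+), not normalised, with motif, class and region. Site starts were deposited counting from 0 and are given here counting from 1; 98 of 98 sites inside RefSeq promoter sequences matched on that basis. Xist had 2 sites without a value in day 0 replicate 1, taken as 0.

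The 6 genes and all gene lists were chosen with earlier results of these data known. Named genes are every member site, the 3 genes most like each member by Pearson's r of log2 CPM plus 1 (1 gene and 1 sequence are not reported here), and up to 3 other matrix genes that rose and 3 that fell, by lowest adjusted p. Nid2, Hspg2 and Col18a1 were named outside this rule, after their values were seen. Reads over the most covered site of each gene and K+ stops per site were tested with limma-voom (limma 3.58.1, R 4.3.3) with trimmed-mean scaling, 1 fit over all 6 samples without covariates. A feature entered with 10 reads at the median library in at least 2 libraries and 15 in all. Stop shares were tested with limma on log2 odds (pseudocount 0.5, beta-binomial weights) where all libraries compared had 20 or more reads. The K+ and Li+ libraries of a sample were not paired in the main fits. Benjamini-Hochberg adjustment ran over all features, with a threshold of 0.05. Tests were also run on simulated data with a spread set by hand, and no result here rests on those runs. Fisher's exact tests and Clopper-Pearson intervals used scipy 1.17.1; intervals and floors cover counting error only. A listed 0 was set to 5 reads per library, 10 for both cations, in folds written as "at least". Whether replicates are separate cultures is not labelled. The limma p-values reflect only how these samples vary, which may be technical. Those of Fisher's exact tests take the reads of 1 library pair as units and hold no variation between samples. Each record spans 2 lines of a table, so the values could not be declared as a count column, and the planned quasi-likelihood count test was not run. Replicate numbers were not used to pair the samples of different days in the main fits. Alternatives were other scalings, filters, coverage minimums, pseudocounts, a replicate block, leaving out each sample and, chosen after the data were seen, each listed 0 set to 10 reads.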

Additional observations from a re-analysis of the deposited data

Results flagged for a closer look

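The K+ over Li+ odds of a stop differed between the in vitro and the day 7 tables, by a test of the difference itself, at 9 of the 11 sites tested. On the log2 scale the difference was 5.41 at the canonical Pkdcc site, 4.71 at Fn1, 4.64 at the Sparc exon site, 4.49 at the second Pkdcc site of the 5′ untranslated region, 4.33 in the Col5a1 3′ untranslated region, 4.17 at the Agrn 3′ site, 3.91 at the Agrn junction site, 2.57 at the Sparc junction site and 1.82 at the bulged Pkdcc site. The bulged Pkdcc site missed the threshold whichever library pair was left out, the Sparc junction site without either day 7 replicate, and Fn1 and the Agrn junction site without day 7 replicate 1. The share of all sites past the threshold was 74.5%. Every listed site had a K+ excess in vitro, so the list itself leans towards such differences. No group held the 4 samples that a search for single outlying samples needs.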

How the results depend on the processing

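Stop shares of K+ against Li+ within a day could not be refitted without a replicate, and the planned quasi-likelihood count test was not run. With 1 sample left out, 0 to 5 of the 6 genes changed in RNA amount from day 0 to day 7 (2 with all samples) and 0 to 3 from day 3 to day 7 (also 2). Over all genes the counts ran from 5 to 919 (439 with all samples) and from 0 to 419 (302), and from day 0 to day 3 from 0 to 197 (2). With K+ reads only 25 genes changed from day 0 to day 3, and with Li+ reads only 172 changed from day 3 to day 7 and 1 from day 0 to day 3. Setting each listed 0 to 10 reads, chosen after the data were seen, ended the calls of Col1a1 and called 3 and 2 of the 6 genes, with 362 and 168 genes in all and 14 from day 0 to day 3. K+ stop counts passed at 2 of 16 member sites with no filter in both comparisons with day 7, and at 0 to 1 with a sample left out. Those 2, the canonical and bulged Pkdcc sites, had no listed reads before day 7, and against 5 stops for each listed 0 their day 7 stops were 1.14 and 0.44 times the day 0 level, so no rise in stops was shown. Of 327 sites, 53, 21 and 2 passed for day 7 against day 0, day 7 against day 3 and day 3 against day 0; with no filter 154 (3.06%), 134 (2.66%) and 14 of 5037 did, and with total stops as the only scaling 93 for the first and 43 for the last. A coverage minimum of 50 left 6 member sites, all called, for K+ against Li+ in vitro and 5, all called, for in vitro against day 7, since fewer sites were tested; the latter ran from 5 to 8 with a replicate left out.

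None of the 6 genes passed from day 0 to day 3 under any alternative run, and their small log2 changes turned sign in places. Pkdcc and Col1a1 are at 0 in all 4 samples, so their fitted values, -0.435 to 1.07 for both with 1 sample left out, come from the prior count and library sizes alone. For the other genes the cause was not tested. Col5a1 was -0.904 with K+ reads only and -0.0206 with the replicate block, and Sparc 2.41 with Li+ reads only. With 1 sample left out the changes from day 0 to day 3 ran from -2.61 to 3.28 for Col5a1, -0.087 to 1.40 for Fn1 and -0.932 to 0.742 for Sparc, and that of Fn1 from day 3 to day 7 from -0.122 to 0.867.

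Replicate numbers deviated together with r = 0.25 between days 0 and 3, -0.06 between days 0 and 7 and 0.03 between days 3 and 7. What samples of the same number share is not labelled. With the replicate block 2 of the 6 genes passed in each comparison with day 7, as without it. From day 0 to day 7, 264 genes passed in all. For K+ against Li+ the block pairs the libraries of a sample. On day 3 it called 42 sites, none of them in these genes, against 0 of the 965 tested without it. Depth limits the in-cell shares: 11 of the 17 sites had 20 reads in every day 7 library.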
